A study of Mus musculus with 6 samples.

Results

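The Krüppel-like factors (KLFs) are a family of transcription factors, and 10 of them, *Klf2*, *Klf3*, *Klf4*, *Klf5*, *Klf6*, *Klf9*, *Klf10*, *Klf11*, *Klf13* and *Klf15*, were followed by name in the mRNA of mouse ovarian granulosa cells (GCs). They were 10 of the 54532 genes in the expression table. Female ICR mice of 3 weeks of age were given 5 IU of PMSG, a gonadotropin that drives follicles to grow, and 22 h later received an intraperitoneal injection of PBS or of cyclophosphamide (CTX), a DNA-alkylating chemotherapeutic, at 120 mg/kg. GCs were taken 6 h after the injection, the cells of 3 mice were combined in each sample, and each group held 3 samples. All animals, the PBS group included, had thus been primed with PMSG, and no later time or lower dose of CTX enters the comparison.

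KLF proteins bind GC-rich and CACCC sequences of DNA through a run of C2H2 zinc fingers at the carboxyl end. The part of the protein before the fingers differs between members and determines the partner: KLF2, KLF4, KLF5 and KLF6 are known to bring in histone acetyltransferases, KLF3 the corepressor CtBP, and KLF9, KLF10, KLF11 and KLF13 the corepressor Sin3A. Many KLF genes respond within hours to serum, hormones, shear stress or injury, and several act at the boundary between proliferation and differentiation.

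The relatedness of the members is shown because the comparisons between close relatives rest on it. In the coding sequences of GENCODE, each of the 10 proteins held 3 C2H2 fingers in a region of 81 residues, within proteins of 244 (KLF9) to 502 (KLF11) residues. Over the 45 pairs of members, identity in that region was 60.5% to 91.4% with a median of 67.9%, whereas before the fingers it was 20.3% to 41.2% with a median of 27.2%. KLF2 and KLF4 were the closest pair in both regions, with 91.4% and 41.2%. KLF10 and KLF11 shared 86.4% of the finger region, and KLF9 and KLF13 shared 81.5%. KLF15 stood apart from the others in the map of finger identity.

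**Figure D1:**
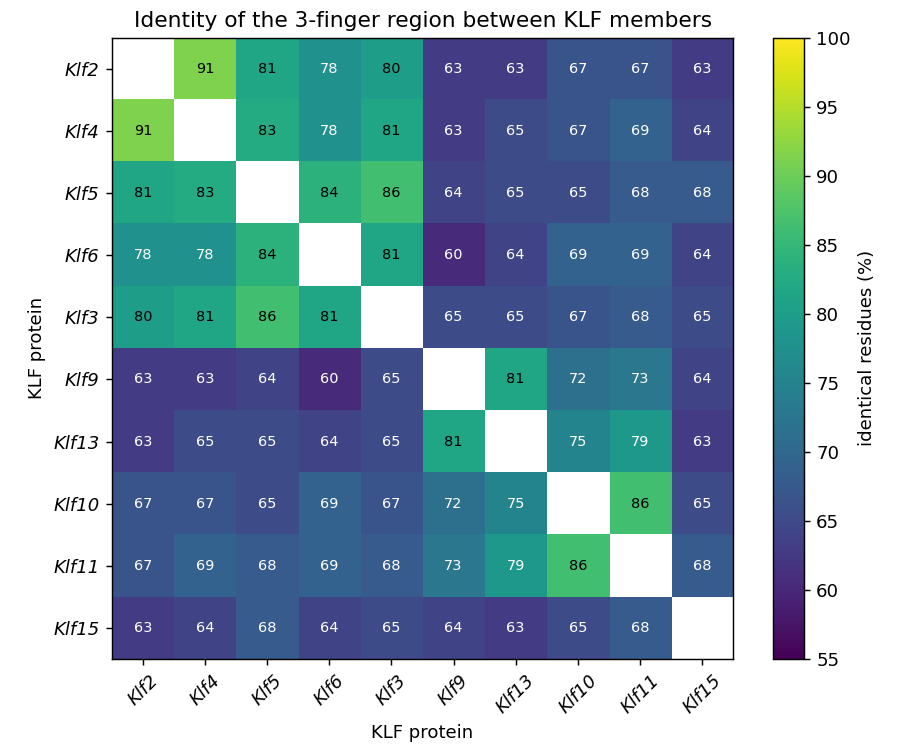
Percentage of identical residues in the 81-residue finger region for each pair of KLF proteins (both axes, same order), from darker (lower) to lighter (higher). A block of KLF2, KLF4, KLF5, KLF6 and KLF3 and a second block of KLF9, KLF13, KLF10 and KLF11 are visible, and the closest pair, KLF2 and KLF4, shares 91.4%.

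The sequences before the start site of 4 genes, taken from RefSeq on GRCm38.p6, are given here because they form 2 of the 3 pairs of relatives whose expression is compared below, *Klf4* with *Klf2* and *Klf9* with *Klf13*. Each runs 5′ to 3′ along the strand of its gene and covers the 250 bases before the start. Capitals mark TGACG, the core of a cAMP response element, and a MEF2-type sequence, CTA and TAG with any 4 bases between them, on either strand.
Klf4 promoter (chr4:55532476-55532725, minus strand): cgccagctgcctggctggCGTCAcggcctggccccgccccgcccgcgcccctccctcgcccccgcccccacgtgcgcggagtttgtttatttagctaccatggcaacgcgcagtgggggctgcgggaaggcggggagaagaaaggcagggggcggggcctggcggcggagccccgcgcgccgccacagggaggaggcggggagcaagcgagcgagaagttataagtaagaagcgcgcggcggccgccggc
Klf2 promoter (chr8:72318812-72319061, plus strand): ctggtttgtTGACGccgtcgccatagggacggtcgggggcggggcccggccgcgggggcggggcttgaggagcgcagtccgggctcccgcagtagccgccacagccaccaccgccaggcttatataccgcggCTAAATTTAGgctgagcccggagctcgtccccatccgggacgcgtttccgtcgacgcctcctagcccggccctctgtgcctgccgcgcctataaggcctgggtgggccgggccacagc
Klf9 promoter (chr19:23140976-23141225, plus strand): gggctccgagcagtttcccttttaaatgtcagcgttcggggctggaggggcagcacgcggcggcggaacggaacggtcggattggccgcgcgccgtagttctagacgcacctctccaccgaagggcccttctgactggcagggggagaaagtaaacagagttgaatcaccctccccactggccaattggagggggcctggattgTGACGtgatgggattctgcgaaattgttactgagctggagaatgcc
Klf13 promoter (chr7:63938916-63939165, minus strand): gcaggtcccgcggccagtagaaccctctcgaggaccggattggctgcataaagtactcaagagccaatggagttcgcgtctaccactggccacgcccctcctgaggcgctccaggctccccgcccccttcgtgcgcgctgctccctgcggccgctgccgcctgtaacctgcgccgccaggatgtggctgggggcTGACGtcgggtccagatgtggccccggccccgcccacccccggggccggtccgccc
Motifs were counted on both strands in windows of 250 bases before to 50 after the start, which RefSeq gave for 8 of the 10 members, all but *Klf5* and *Klf10*. TGACG was present in 6 of the 8 windows and in 20.8% of all 32851 windows. It was in the windows of *Klf2*, *Klf4* and *Klf9* and also in those of *Klf3*, *Klf13* and *Klf15*, and in neither that of *Klf6* nor that of *Klf11*. The MEF2-type sequence was found in the *Klf2* window alone among the members, at position -118 from the start, and in 3.69% of all windows. The GC box GGGCGG was in 7 member windows (35.7% of all windows), CACCC in 5 (57.5%) and the E-box CACGTG in 4 (7.15%), namely *Klf4*, *Klf6*, *Klf11* and *Klf15*. TATAAA and the CArG box, the sequence bound by SRF, were in 0 of the 8, against 13.6% and 1.63% of all windows. The G and C content of the member windows was 63.0% to 77.7%, and the median of all windows was 52.7%.

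Levels are given as FPKM, fragments per kilobase of transcript scaled to sequencing depth, so that levels of different genes can be compared. Reads rebuilt from the FPKM values numbered 16005869 to 17790353 per PBS sample and 17727770 to 18455011 per CTX sample. The samples also differed in measures that stand beside the KLF values: CTX replicate 2 lay apart from the other 5 samples on the first principal component (46.8% of the variance, a score of 74.7 against -26.6 to 13.2), the summed level of 8 leukocyte markers was 17.5 to 19.9 FPKM in the PBS samples and 31.2, 59.8 and 22.2 FPKM in CTX replicates 1, 2 and 3, and that of 10 GC markers was 13052 to 14337 FPKM in PBS and 11144 to 12013 FPKM in CTX. The part of these differences in the KLF results was not tested, and in bulk RNA fewer cells of a type and less RNA per cell cannot be told apart.

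Whether CTX changed each KLF gene was tested with limma on log2(FPKM + 0.1) over the 14463 genes whose mean reached 0.5 FPKM, and a gene was called when the Benjamini-Hochberg adjusted p was below 0.05 and the change exceeded 2-fold. Of the 10 members, 9 were tested, and *Klf2*, *Klf4*, *Klf6*, *Klf9*, *Klf10* and *Klf11* were called higher in CTX, 6 members in all, whereas 0.802% of all tested genes were. No member was called lower (0 of 9 by limma, 0 at an unadjusted p below 0.05 and 0 by voom on the rebuilt reads), against 0.159% of all tested genes. An unadjusted p below 0.05 was reached by 10.5% of all tested genes with a higher and 9.10% with a lower value in CTX, against which the counts at that p in the lists of genes are to be read. All CTX values exceeded all PBS values for 6 members, against 15.0% of tested genes, and below for 1, *Klf15*, against 14.1%. The 9 tested members had a median log2 fold change of 1.70 and all tested genes one of -0.01. These counts describe genes chosen with earlier results of the same samples known.

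**Figure D2:**
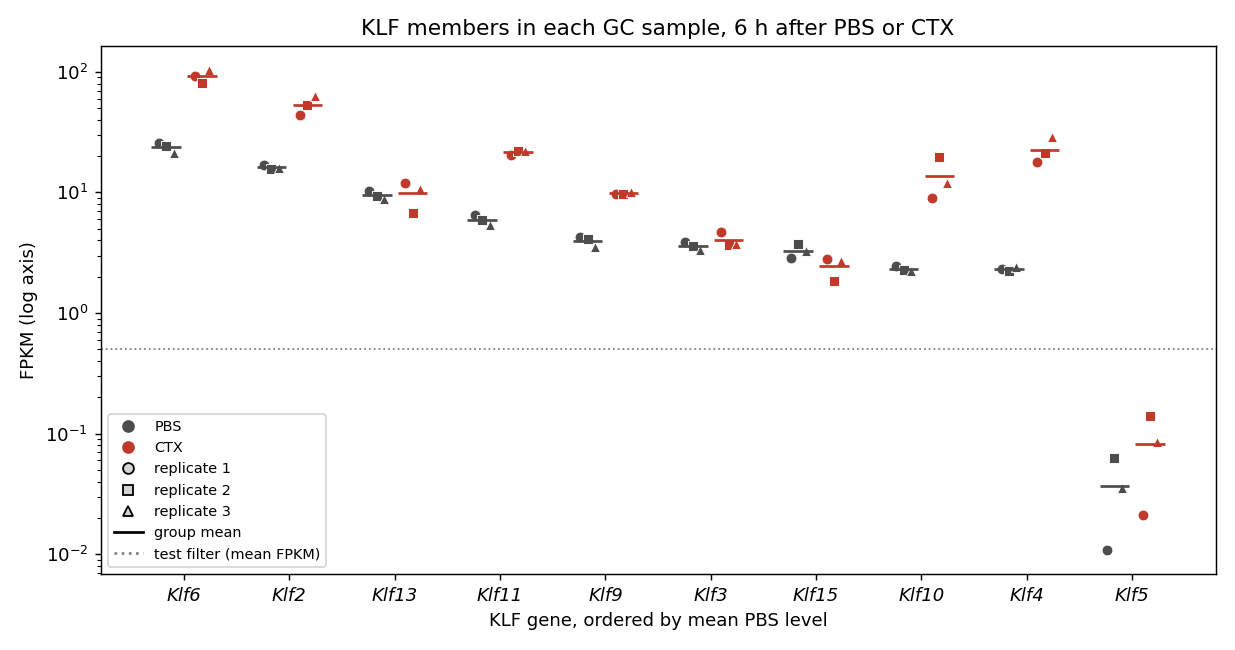
FPKM of each member (logarithmic vertical axis) in the 3 PBS samples (grey) and the 3 CTX samples (red), with the mean of each group as a line, members ordered by PBS level and the filter of 0.5 FPKM dotted. The red points of *Klf6*, *Klf2*, *Klf11*, *Klf9*, *Klf10* and *Klf4* all lie above the grey points, those of *Klf13* and *Klf3* overlap them, and *Klf5* lies below the filter.

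Among the members that recruit acetyltransferases, all 3 that could be tested were upregulated. *Klf4*, one of the reprogramming factors of pluripotency and a regulator of epithelial differentiation (chr4:55527143-55532466, minus strand, GRCm38), stood at 2.32, 2.24 and 2.39 FPKM in PBS and rose to 18.0, 21.4 and 28.7 FPKM with CTX. The groups were far apart, with the lowest CTX sample 7.76 times the PBS mean and the highest, replicate 3, 12.4 times. Its log2 fold change was 3.21 (SE 0.17, 95% CI 2.80 to 3.62, limma adjusted p = 8.6e-04), the 9th largest rise among the tested genes. The values rested on 118 to 126 reads per PBS sample and 993 to 1569 per CTX sample.

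*Klf2*, the nearest relative of *Klf4* and a regulator of endothelial and T cell quiescence (chr8:72319033-72321656, plus strand), stood at 16.9, 15.5 and 15.9 FPKM in PBS and 43.7, 52.8 and 63.1 FPKM in CTX. The PBS samples were tight and the CTX samples spread upwards from them without overlap. The log2 fold change was 1.70 (SE 0.14, 95% CI 1.38 to 2.03, limma adjusted p = 3.4e-03). The summed level of 8 endothelial markers was 5.97 to 6.45 FPKM in PBS and 2.58 to 5.41 FPKM in CTX. Of the 8, 5 stayed below 0.5 FPKM in all samples, 2 were tested and 0 were called. Of the 2 tested, 1, *Cdh5*, was lower in every CTX sample than in every PBS sample, against 14.1% of all tested genes. Over all 8, untested markers included, 2 were. *Cdh5*, the largest part of the sum in PBS, was at 4.17, 4.49 and 3.66 FPKM in PBS and 2.99, 1.25 and 3.11 FPKM in CTX. The part of endothelial cells in the *Klf2* values was not tested.

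*Klf6*, a growth-restraining factor that responds to tissue injury (chr13:5861482-5870394, plus strand), was the most abundant member in all 6 samples. It stood at 25.8, 24.3 and 21.4 FPKM in PBS and 92.7, 80.5 and 103.7 FPKM in CTX, again without overlap. Its mean rose from 23.8 ± 2.24 to 92.3 ± 11.6 FPKM (SD, n = 3 per group), a log2 fold change of 1.95 (SE 0.12, 95% CI 1.66 to 2.23, limma adjusted p = 1.2e-03).

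*Klf5*, which drives the growth of intestinal and other epithelia (chr14:99298691-99315036, plus strand), was close to undetected and did not pass the filter. PBS replicates held 1, 6 and 3 reads and CTX replicates 2, 13 and 8, or at most 0.141 FPKM. The summed reads were 10 in PBS and 23 in CTX, the groups overlapped (exact two-sided permutation p = 0.3, n = 3 per group, smallest possible 0.1), and at this depth no difference was detectable.

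The Sin3A-recruiting members divided, with 3 of 4 called. *Klf10*, known as TGF-beta-inducible early gene 1 (chr15:38291463-38300706, minus strand), stood at 2.46, 2.27 and 2.23 FPKM in PBS and 9.06, 19.9 and 11.97 FPKM in CTX. Replicate 2 was the highest CTX sample at 8.56 times the PBS mean, whereas replicate 1 reached 3.90 times, and the coefficient of variation in CTX was 41.0%, the widest of the tested members. The log2 fold change was 2.43 (SE 0.27, 95% CI 1.77 to 3.08, limma adjusted p = 0.012). This was the least secure of the 6 calls: the adjusted p became 0.079, 0.076 and 0.088 without PBS replicate 1, 2 or 3 and 0.071 without CTX replicate 3, while the log2 fold change stayed between 2.07 and 2.68 over all alternatives.

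*Klf11*, the closest relative of *Klf10* and a repressor that is also induced by TGF-beta (chr12:24651274-24662789, plus strand), stood at 6.54, 5.93 and 5.32 FPKM in PBS and 20.3, 22.1 and 22.03 FPKM in CTX. Unlike those of *Klf10*, its CTX samples were close together, with a coefficient of variation of 4.73%. The log2 fold change was 1.84 (SE 0.09, 95% CI 1.62 to 2.07, limma adjusted p = 8.2e-04).

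*Klf9*, a target of glucocorticoid and thyroid hormone receptors (chr19:23141226-23166911, plus strand), stood at 4.25, 4.11 and 3.50 FPKM in PBS and 9.71, 9.78 and 10.01 FPKM in CTX. The CTX values were almost identical, with a coefficient of variation of 1.603%, and every one lay above the PBS samples. The log2 fold change was 1.30 (SE 0.09, 95% CI 1.07 to 1.52, limma adjusted p = 2.5e-03), the smallest of the 6 rises.

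*Klf13*, first known as a factor of late-activated T lymphocytes (chr7:63886351-63938915, minus strand), stood at 10.2, 9.38 and 8.75 FPKM in PBS and 11.99, 6.69 and 10.8 FPKM in CTX. CTX replicate 2 was below all PBS samples and the other two above them. The log2 fold change was 0.02 (SE 0.22, 95% CI -0.51 to 0.54, limma adjusted p = 0.979), so that a change as large as that of *Klf9* lay outside its interval, and its sign turned under 5 of 16 alternatives. A transcript on the opposite strand, *Gm27252*, overlaps *Klf13* and was listed at 1.88 to 2.76 FPKM in PBS and 0.550 to 2.41 FPKM in CTX, and whether the counting kept strands apart is not given in the sources used here.

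The CtBP-recruiting *Klf3*, a repressor of erythroid and adipose genes (chr5:64803388-64832901, plus strand), stood at 3.85, 3.58 and 3.31 FPKM in PBS and 4.74, 3.65 and 3.72 FPKM in CTX. The groups overlapped, and the log2 fold change was 0.16 (SE 0.13, 95% CI -0.15 to 0.48, limma adjusted p = 0.504). Another transcript on the same strand, *C230096K16Rik*, lies within its span, and its level did not exceed 0.843 FPKM.

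*Klf15*, a glucocorticoid-induced regulator of amino acid and glucose metabolism (chr6:90462576-90475238, plus strand), was the member with the largest fitted fall. It stood at 2.83, 3.71 and 3.27 FPKM in PBS and 2.81, 1.84 and 2.68 FPKM in CTX. The groups did not overlap, but the highest CTX sample was almost at the lowest PBS sample, and the log2 fold change of -0.42 (SE 0.19, 95% CI -0.89 to 0.04) did not pass the test (limma adjusted p = 0.281). *Klf15* and *Klf9* are both glucocorticoid targets by background. *Klf9* was called higher, whereas the sign of the *Klf15* change is not settled, since its interval included 0. The part of glucocorticoids in either change was not tested.

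**Figure D3:**
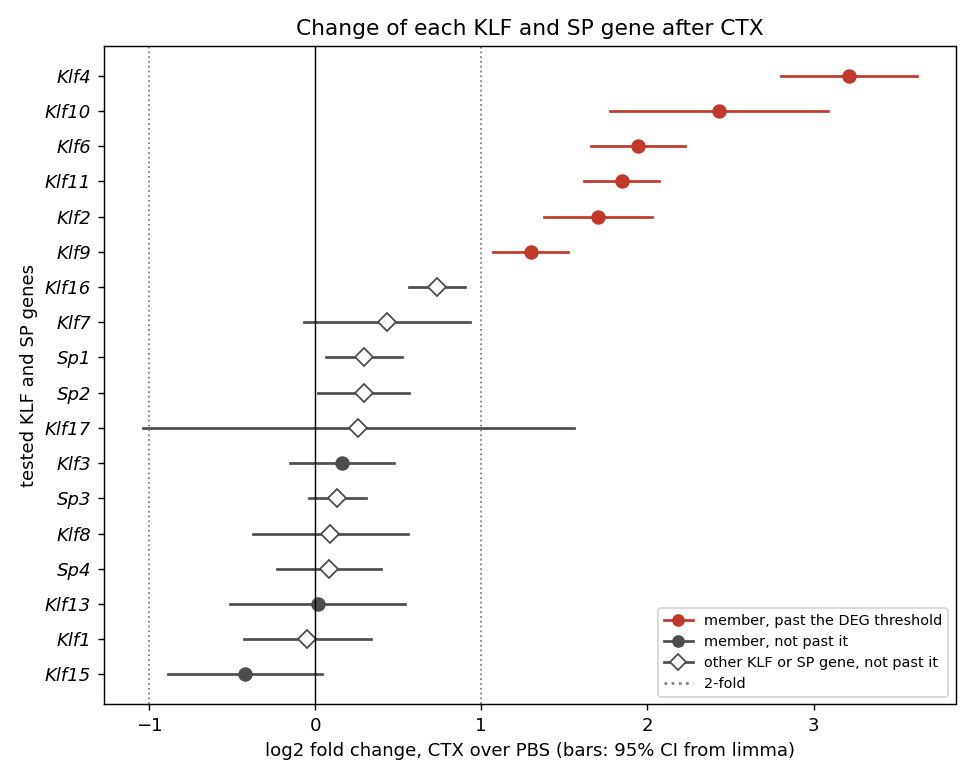
Log2 fold change of CTX over PBS with its 95% confidence interval from limma (horizontal axis) for the 18 tested KLF and SP genes (rows), with members as filled circles and other genes as open diamonds. The 6 called members (red) lie to the right of the dotted 2-fold line, and *Klf16* at 0.74 is the nearest of the others.

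The other KLF genes and the SP factors, which carry the same kind of finger region, were read in the same fit. Of 7 further KLF genes in the table, 5 were tested and 0 were called (limma and voom), with 1 at an unadjusted p below 0.05 and a median log2 fold change of 0.26. That gene was *Klf16*, a Sin3A-recruiting factor, at 16.4, 15.5 and 16.9 FPKM in PBS and 26.0, 28.8 and 26.6 FPKM in CTX. It was higher in all CTX samples, and its log2 fold change of 0.74 (SE 0.07, limma adjusted p = 5.9e-03) passed the p threshold, as 1.40% of all tested genes did in that direction, but not the 2-fold one. *Klf7* was at 0.43 (SE 0.21, adjusted p = 0.298), *Klf17* at 0.26, *Klf8* at 0.09 and *Klf1* at -0.05 on the log2 scale. *Klf12* and *Klf14* did not pass the filter. With these genes included, the acetyltransferase-recruiting and the Sin3A-recruiting factors each had 3 of 5 tested genes called, and the CtBP-recruiting factors 0 of 2. Of the 9 SP factors, 4 were tested and 0 were called (limma and voom; 2 at an unadjusted p below 0.05), with *Sp1* at 0.30 (adjusted p = 0.182), *Sp2* at 0.29 (adjusted p = 0.236), *Sp3* at 0.13 and *Sp4* at 0.08.

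In total, the 10 members together made up 75.2, 71.1 and 66.1 FPKM in PBS and 213.0, 218.9 and 256.9 FPKM in CTX, and the ratio of the group means was 3.24. The make-up of this sum changed as well. *Klf6* held 32.4% to 34.3% of it in PBS and 36.8% to 43.5% in CTX, *Klf4* held 3.08% to 3.61% in PBS and 8.44% to 11.2% in CTX, and *Klf13* held 13.2% to 13.6% in PBS and 3.06% to 5.63% in CTX. The share of *Klf2* stayed within overlapping ranges, 21.9% to 24.0% and 20.5% to 24.6%. These are shares of a sum and are given without a test.

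**Figure D4:**
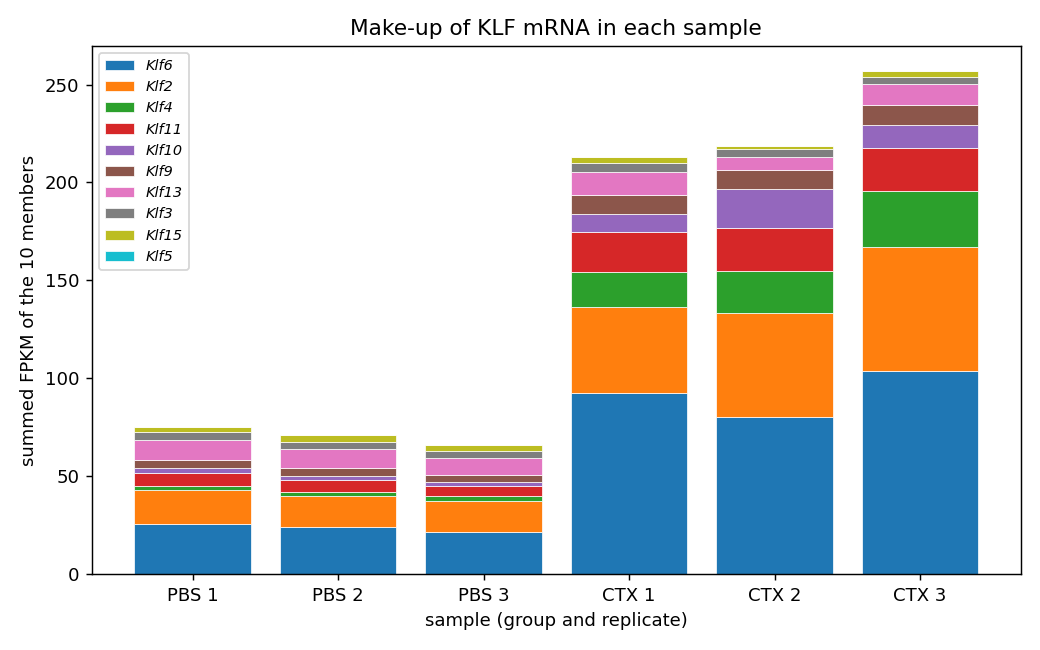
Summed FPKM of the 10 members in each of the 6 samples (bars, from 0), split by gene. The PBS bars reach 66.1 to 75.2 and the CTX bars 213.0 to 256.9, and *Klf6* and *Klf2* form the largest parts of every bar.

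The order of the levels also differed between the groups. In PBS it ran *Klf6*, *Klf2*, *Klf13*, *Klf11*, *Klf9*, *Klf3*, *Klf15*, *Klf10*, *Klf4* and *Klf5*, and the sample ranges overlapped between the neighbours *Klf9* and *Klf3*, *Klf3* and *Klf15*, and *Klf10* and *Klf4*. In CTX it ran *Klf6*, *Klf2*, *Klf4*, *Klf11*, *Klf10*, *Klf9*, *Klf13*, *Klf3*, *Klf15* and *Klf5*, with overlap between *Klf4* and *Klf11*, *Klf10* and *Klf9*, and *Klf9* and *Klf13*. *Klf4* moved from the 9th place to the 3rd, and *Klf13* from the 3rd to the 7th.

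Whether close relatives changed by different amounts was compared with the ratio of their FPKM values within each sample. The *Klf4*/*Klf2* ratio was 0.137, 0.144 and 0.150 in PBS and 0.411, 0.406 and 0.455 in CTX, a log2 difference of 1.56 (SE 0.07). *Klf2* thus stayed the more abundant of the pair in every sample, by a smaller margin after CTX. The *Klf9*/*Klf13* ratio was 0.416, 0.438 and 0.400 in PBS and 0.809, 1.46 and 0.929 in CTX, a log2 difference of 1.30 (SE 0.26), and *Klf9* exceeded *Klf13* in CTX replicate 2 alone. The *Klf10*/*Klf11* ratio was 0.376, 0.383 and 0.419 in PBS and 0.446, 0.897 and 0.543 in CTX, with a log2 difference of 0.62 (SE 0.30) that fell to 0.33 without CTX replicate 2. The groups did not overlap for any of the 3 ratios, and each gave an exact two-sided permutation p of 0.1 (0.1 after adjustment over the 3 pairs), the smallest that this test can give with 3 samples against 3, so that this test cannot reach the 0.05 threshold here.

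**Figure D5:**
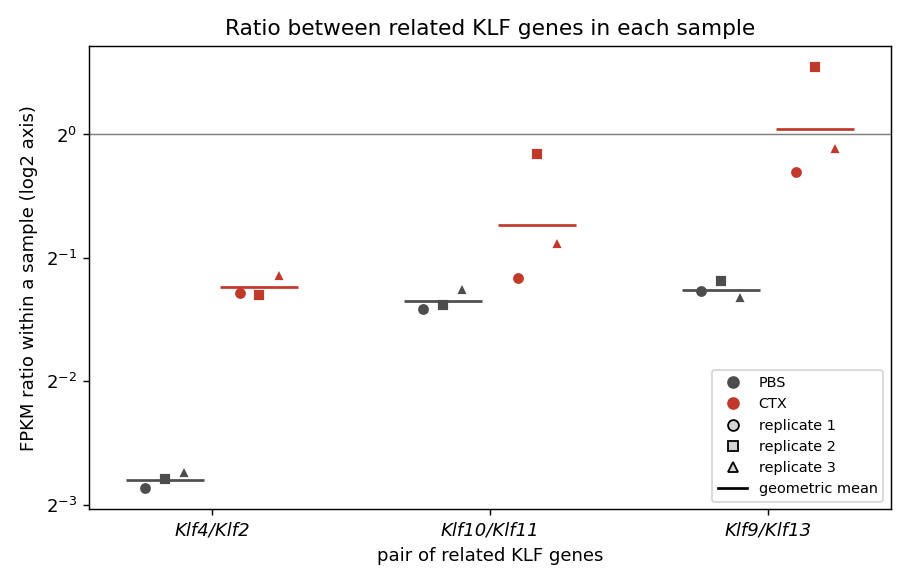
Ratio of the FPKM values of 3 pairs of related genes in each sample (log2 vertical axis), PBS in grey and CTX in red, with the geometric mean of each group as a line. The red points lie above the grey points for all 3 pairs, closely grouped for *Klf4*/*Klf2* and spread, with replicate 2 highest, for *Klf10*/*Klf11* and *Klf9*/*Klf13*.

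Genes whose products act with or on KLF proteins were read in the same fit. Of 10 KLF cofactors (CtBP, Sin3, histone deacetylase and acetyltransferase genes), 10 were tested and 0 were called by limma or voom, with 1 at an unadjusted p below 0.05 and a median log2 fold change of 0.01. The lowest adjusted p values among them belonged to the deacetylase genes *Hdac3*, at -0.15, and *Hdac1*, at -0.34. Of 8 genes for ubiquitin ligases that act on KLF proteins, 0 were called by limma or voom (1 at an unadjusted p below 0.05), with *Smurf1* at 0.33 (limma adjusted p = 0.077) and *Fbxw7* at 0.27. FPKM values carry no measure of KLF protein.

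Genes of pathways that are known to switch on KLF genes were read as lists. The ERK5-MEF2 genes, which act upstream of *Klf2* and *Klf4*, had 0 of 5 called (1 at an unadjusted p below 0.05), led by *Mef2d* at 0.30 and *Mef2c* at 0.38. Of 10 tested SRF and CREB genes, 0 were called (2 at an unadjusted p below 0.05), with *Srf* at 0.76 (limma adjusted p = 0.087) and *Crtc3* at 0.36. The mRNA levels of the genes in these lists do not measure the activity of their proteins, so the counts cannot show whether a pathway was active. Early TGF-beta response genes are the setting in which *Klf10* and *Klf11* were described. Of 9 tested, 0 were called, and 4 were higher at an unadjusted p below 0.05, against 10.5% of all tested genes. Their median was 0.39, and 5 were above all PBS samples, against 15.0% of all tested genes. Of these, *Skil*, a SMAD inhibitor, was at 0.88 (limma adjusted p = 0.025), short of 2-fold, and *Bhlhe40* at 0.95 (adjusted p = 0.137). Voom called none of the genes in these 3 lists. Of 11 glucocorticoid response genes, 1 was called higher, *Pdk4*, a brake on pyruvate oxidation, at 1.66 (limma adjusted p = 0.021). Another was called lower, the metallothionein gene *Mt2*, at -1.98 (limma adjusted p = 0.042), which voom did not call. Of all tested genes, 0.802% were called higher and 0.159% lower. At an unadjusted p below 0.05, 4 of the 11 were higher and 2 lower, against 10.5% and 9.10% of all tested genes.

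Among 8 tested genes reported as targets of KLF proteins, 1 was called higher, the cell cycle inhibitor gene *Cdkn1a*, at 9.43, 8.86 and 8.90 FPKM in PBS and 66.4, 42.7 and 66.8 FPKM in CTX. *Cdkn1a* is a target of p53 as well as of KLF4 and KLF6, and its log2 fold change was 2.65 (limma adjusted p = 1.9e-03). The median of the 8 was 0.32, and 2 were higher at an unadjusted p below 0.05, against 10.5% of all tested genes. Immediate-early genes respond to stimuli within minutes to hours without new protein synthesis. Of 19 tested, 15 were called higher, against 0.802% of all tested genes. Their median was 1.78, beside -0.01 over all tested genes and 1.70 over the KLF members. Both lists were chosen with earlier results of these samples known. The largest rises among the immediate-early genes were those of *Atf3* (3.13), *Egr2* (3.02), *Nr4a1* (2.32) and *Maff* (2.25 on the log2 scale).

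The tested genes whose 6 values lay nearest to those of *Klf4*, by Euclidean distance of log2 values centred on the PBS mean, were *Egr2* (distance 0.64), *Eda2r* (0.66), *Atf3* (0.75), *Inka2* (0.75) and *Svop* (0.83). *Egr2* and *Atf3* are immediate-early transcription factors and *Eda2r* is a receptor of the TNF receptor family. *Svop* was listed at 0 to 0.0479 FPKM in PBS, and a gene with so few reads has no firm fold. For *Klf15*, the nearest were *Xrcc3* (0.14), *Mapk1ip1* (0.18), *Ralgps1* (0.20), *Gm17055* (0.22) and *Svip* (0.24). Like *Klf15*, each had its lowest value in CTX replicate 2, but genes picked for a small distance share its pattern by selection.

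The spans of the 6 called members, of which that of *Klf9* was the longest, were 2.62 to 25.7 kb with a median of 9.08 kb, and those of the 3 tested members that were not called were 12.7 to 52.6 kb with a median of 29.5 kb. The median span was 9.78 kb over all 116 genes called higher and 18.0 kb over all tested genes. The count of ATTTA, an element of unstable mRNAs, ran from 1.02 to 2.68 per kb of 3′ untranslated sequence in the called members and from 0.58 to 2.11 in the others tested, and the median of 11026 tested genes was 1.31.

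The KLF values were also set beside markers of other cells that GC preparations can hold. Of 10 GC markers, 7 were lower in every CTX sample, against 14.1% of all tested genes, and 1 was higher. By limma or voom 0 were called (4 at an unadjusted p below 0.05). The median log2 fold change of the 10 was -0.43, with *Inhbb* at -1.025 (limma adjusted p = 0.124) and *Foxl2* at -0.82 (adjusted p = 0.137). The sum of the 10 was at least 11144 FPKM in every sample. Of 8 leukocyte markers, 4 were tested and 1 was called, the monocyte receptor gene *Cd14*, from 0.821, 1.25 and 1.14 FPKM in PBS to 2.46, 3.23 and 2.56 FPKM in CTX. The summed leukocyte level was highest in CTX replicate 2, as were the levels of *Klf10* and, by a small margin, *Klf11*. *Klf2*, *Klf4* and *Klf6* were highest in replicate 3, where the leukocyte sum was lowest of the CTX samples. *Klf9* was also highest there, but its CTX values were almost identical (9.71, 9.78 and 10.01 FPKM). The part of leukocytes in the KLF values was not tested. The summed theca and stroma markers stood at 60.0 to 62.2 FPKM in PBS and 35.3 to 80.6 FPKM in CTX, with *Acta2* called higher (1.08 on the log2 scale). Oocyte markers (33.1 to 70.3 and 45.7 to 81.6 FPKM) and erythroid markers (319 to 454 and 138 to 497 FPKM) overlapped between the groups. No marker was at 0 in all samples. Without CTX replicate 2, the same count of 6 members was called higher and 0 lower.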

How the data were processed

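RNA-seq was measured in 6 GC samples, 3 per group. The authors deposited FPKM values per gene and sample, and per the submitters' processing notes the tools were CASAVA 1.8, fastp, HISAT2 2.0.5, featureCounts 1.5.0-p3 and DESeq2 1.20.0 on mm10. Strandedness is not given in the sources used here. The table also holds the authors' group means, fold changes, p-values and adjusted p-values, which were not used, and 0 per-sample columns were left unmapped. Whole reads were recovered for 100% of values (tolerance 0.02 reads), and 1 read in a transcript of 1 kb was worth 0.0545 to 0.0617 FPKM. That worth did not follow the library totals exactly, so the deposited FPKM carries another scaling, and scaling to the totals was tried as an alternative. FPKM was tested as log2(FPKM + 0.1) with limma 3.58.1 (lmFit, eBayes with trend, R 4.3.3), two-sided, for genes with a mean of at least 0.5, with Benjamini-Hochberg adjustment over 14463 genes. The test was checked on simulated data in which both groups had the same spread. That check does not cover a wider spread in CTX than in PBS, as seen for *Klf4* and *Klf10*. Calls needed an adjusted p below 0.05 and over 2-fold. Ratios and single genes were compared with exact permutation tests in SciPy 1.17.1. The KLF members and the gene lists were chosen with earlier results of these data known.

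Named are all members, other KLF and SP genes whose mean reached 0.5 FPKM, and in each list the called genes (at most 4, by size) or else the 2 with the lowest adjusted p, while of marker lists the summed levels are given. Proteins were translated from GENCODE M21 coding sequences with Biopython 1.88, and no RefSeq protein was used. Samples came from separate mice, 3 mice pooled in each, so p-values measure the spread between pools. The intervals are those of limma for log2 fold changes and rest on the same spread. Alternatives were other pseudocounts, filters, scalings, a replicate block, each sample left out, eBayes without trend, voom on the recovered reads and no fold threshold.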

Additional observations from a re-analysis of the deposited data

How the results depend on the processing

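*Klf2*, *Klf4*, *Klf6*, *Klf9* and *Klf11* were called higher under all 16 alternatives, and *Klf10* under 11 of 16. The alternative with no fold threshold is the same fit under a looser rule, so a called gene cannot lose its call there. *Klf3* and *Klf15* were called under none of 15, and *Klf13* under none of 16. The number of members called higher was 5 or 6 in all settings and that called lower 0. The log2 fold change of *Klf13*, 0.02 in the report, turned to -1.6e-04 with quantile normalization, -0.016 scaled to the library total, -0.04 without PBS replicate 3, -0.15 without CTX replicate 1 and -0.07 without CTX replicate 3, and was 0.27 without CTX replicate 2. Over all tested genes, 139 were called, 254 with no fold threshold and 58 to 205 with 1 sample left out. With 1 sample left out, the genes called higher, 116 in the report, numbered 57 (without PBS replicate 3) to 142 (without CTX replicate 2). Those called lower, 23 in the report, then numbered 1 (without PBS replicate 1 or 3) to 68 (without CTX replicate 1). The replicate block gave 48 higher and 2 lower, and no fold threshold gave 202 and 52. Samples with the same number came from different mice, and the correlations of their deviations were 0.056, 0.024 and 0.0058, so the numbers do not pair them. With the replicate block, 50 genes were called, 5 of them KLF members, and *Klf10* had an adjusted p of 0.070 from limma. *Klf16* had an adjusted p of 0.083 with the block, and of 0.053 and 0.052 without PBS replicates 1 and 2. The cause of these changes was not tested. With 3 samples per group the smallest exact p is 0.1, and *Klf5* is limited by depth.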
